A study of Mus musculus with 5 samples.

Results

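The proteasome genes are the 44 rows of the deposited count tables, of 36401 rows in all, whose symbol names a Psma, Psmb, Psmc, Psmd or Psme gene. They include 5 genes that interferon induces, Psmb8, Psmb9, Psmb10, Psme1 and Psme2, and 39 other rows, most of them constitutive subunits. Psmd14 takes up a pair of rows, and its minor row held at most 39.3 estimated counts in a library. Liver RNA was sequenced from BALB/C mice on day 10 of life. The groups were Mdr2+/+ pups (2 libraries) and Mdr2+/- pups (3 libraries), kept as littermates and all sampled from lobe 1 of the liver. Their line was made by crossing Mdr2-/- mice onto BALB/c, and no group of the series analysed here lacks both alleles. Mdr2 is the older name of Abcb4, the canalicular floppase that puts phosphatidylcholine into bile. The design compares the liver transcriptome of neonates with 1 and with both working Mdr2 alleles.

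The proteasome degrades proteins marked with ubiquitin. Its core particle (20S) is a barrel of alpha and beta subunits, of which the beta subunits Psmb5, Psmb6 and Psmb7 carry the cutting sites, and its regulatory particle (19S) recognises and unfolds the substrates with ATPases (Psmc) and non-ATPase subunits (Psmd). In cells exposed to interferon gamma, and in most leukocytes without it, Psmb8, Psmb9 and Psmb10 take the places of Psmb5, Psmb6 and Psmb7 in newly made particles, which are then called immunoproteasomes. Psme1 and Psme2 form the PA28 cap, which opens the barrel and is induced together with them. The peptides made in this way are carried by Tap1 and Tap2 to class I molecules.

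Library totals ran from 11944157 to 17312851 estimated counts. Abcb4 stood at 162.1 and 162.1 CPM (counts scaled to a common, TMM-normalised library size) in the Mdr2+/+ livers and at 101, 97.7 and 92.6 CPM in the Mdr2+/- livers (log2 fold change -0.74, SE 0.06, adjusted p = 3.4e-04). Every Mdr2+/- library was below both Mdr2+/+ libraries, as their labels have it. Fold changes are Mdr2+/- minus Mdr2+/+ on the log2 scale, tested with edgeR's quasi-likelihood test and adjusted over all 13959 tested genes, and a gene is called where the adjusted p is under 0.05. The labels do not say that each library is a separate pup, so p-values measure the spread between these libraries. All 44 rows passed the filter on low counts.

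Of the 44 rows, 20 were called lower in Mdr2+/- livers and 1 was called higher. Among all tested genes 5.41% were called lower and 6.63% higher. The fall was deepest in the interferon-inducible genes, all 5 of which were called, with a median log2 fold change of -1.08. Among the other 39 rows 15 were called lower and 1 higher, with a median of -0.18, where the median of all tested genes was near 0 (-0.0025). The inducible median lay 0.90 below the median of the other members (difference -0.90). Without Mdr2+/+ replicate 1 the difference was -0.60.

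**Figure D1:**
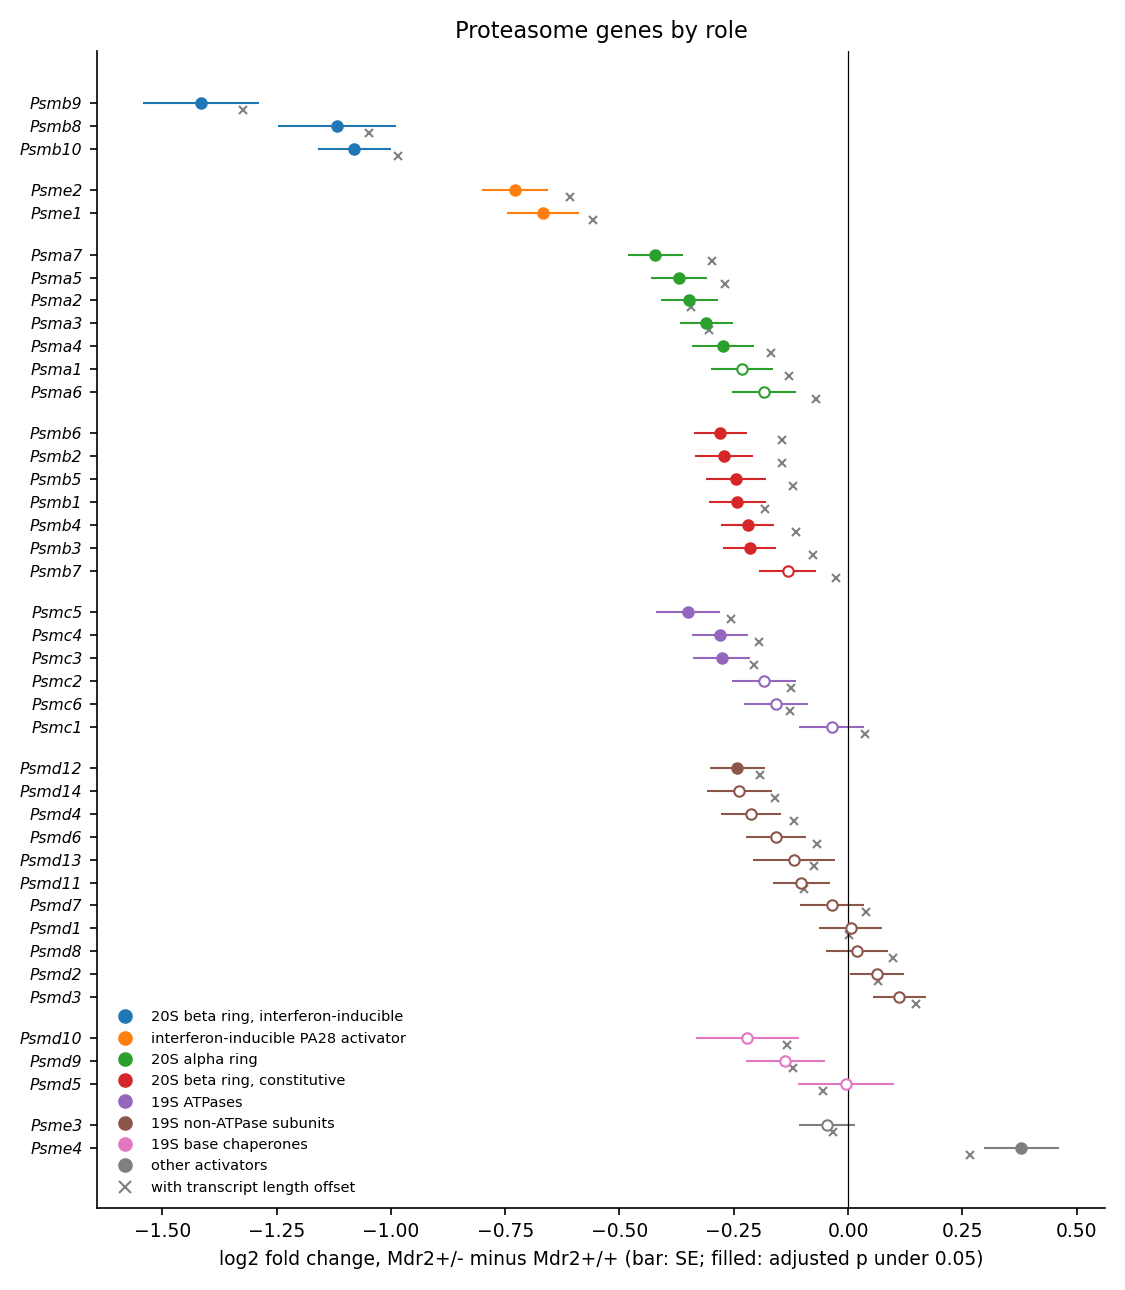
Log2 fold change (Mdr2+/- minus Mdr2+/+, x axis) of the proteasome genes by role, without Psma8, Psmb11 and the minor Psmd14 row, with its standard error as a bar; filled points passed an adjusted p of 0.05, and grey crosses give the value with an offset for transcript length. The inducible genes lie between -1.41 and -0.67, apart from the constitutive 20S genes at -0.42 to -0.13, and Psme4 is the only filled point to the right of 0.

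Psmb9, the inducible counterpart of Psmb6, changed most. It stood at 78.2 and 55.5 CPM in the Mdr2+/+ livers and at 25.1, 23.9 and 26.5 CPM in the Mdr2+/- livers, 66.9 ± 16.0 (SD, n = 2) against 25.2 ± 1.33 (n = 3). The Mdr2+/- libraries were close to each other and all below both Mdr2+/+ libraries. The fall was 2.67-fold (log2 fold change -1.41, SE 0.13, adjusted p = 4.5e-04). In bulk tissue, fewer cells of a type and less RNA per cell cannot be told apart.

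Psmb8, the counterpart of Psmb5 and the site targeted by immunoproteasome inhibitors, gave 116 and 79.3 CPM in Mdr2+/+ livers and 46.1, 44.4 and 44.9 CPM in Mdr2+/- livers. It fell 2.17-fold (log2 fold change -1.12, SE 0.13, adjusted p = 0.00119), and the log2 fold change was -0.82 without Mdr2+/+ replicate 1. Psmb10, the counterpart of Psmb7, gave 86.2 and 73.6 CPM against 38.6, 35.9 and 39.1 CPM and fell 2.11-fold (log2 fold change -1.08, SE 0.08, adjusted p = 1.9e-04). For all 3 inducible beta subunits the lowest Mdr2+/+ library was well above the highest Mdr2+/- library, and Mdr2+/+ replicate 1 was the highest of the 5.

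The PA28 genes fell less. Psme1, its alpha subunit, gave 144 and 121 CPM in Mdr2+/+ livers and 82.0, 86.1 and 82.1 CPM in Mdr2+/- livers, a 1.59-fold fall (log2 fold change -0.67, SE 0.08, adjusted p = 0.00133). Psme2, its beta subunit, gave 95.7 and 84.9 CPM against 52.9, 53.8 and 56.9 CPM, a 1.66-fold fall (log2 fold change -0.73, SE 0.07, adjusted p = 6.3e-04). Again no Mdr2+/- library reached an Mdr2+/+ library. Reads of Psme2 may be shared with Psme2b-ps, a copy that the files name as a pseudogene, which went from 2.92 ± 0.392 to 1.23 ± 0.152 CPM.

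The inducible genes were spread over the genome (mouse build mm10, GENCODE M21). Psmb9 (chr17:34181987-34187764, minus strand) and Psmb8 (chr17:34197721-34201454, plus strand) lie in the class II region of the major histocompatibility complex with Tap1 between them and Tap2 beyond Psmb8. Psme1 (chr14:55578123-55581529) and Psme2 (chr14:55587441-55591113) are neighbours on chromosome 14, and Psmb10 (chr8:105935735-105938444) is on chromosome 8. The members that fell deepest therefore came from 3 chromosomes. The identifier of Psmb9 in the files was not in the annotation and its position was matched by symbol. Exons of Psmb9 overlap those of Tap1 on the opposite strand, and those of Psme1 overlap Emc9; strand use in counting is not given in the sources used here, so reads in the overlaps cannot be told apart. Emc9 was much lower than Psme1, at 9.72 ± 0.294 CPM in Mdr2+/+ and 10.1 ± 0.977 CPM in Mdr2+/- livers.

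Because these genes moved together, their start-site windows were searched for letters of interferon response elements. RefSeq windows (GRCm38.p6) of 300 bases, 250 before and 50 after the start, were found for 36 of the 43 member symbols. The interferon-stimulated response element was searched as a pair of GAAA parted by NN, the gamma-activated site as TTCNNNGAA and the antioxidant response element, which Nfe2l1 binds at constitutive proteasome genes, as TGACNNNGC, each on both strands. Shown are the windows of Psmb9, with the deepest fall and no match, of Psmb8, with a gamma-activated site, of Psme1, with an interferon-stimulated response element, and of their constitutive counterparts Psmb6 and Psmb5, with an antioxidant response element each. Capitals mark the matches, and each window is written 5′ to 3′ on the gene's strand.
Psmb9 (chr17:34187281-34187580, minus strand): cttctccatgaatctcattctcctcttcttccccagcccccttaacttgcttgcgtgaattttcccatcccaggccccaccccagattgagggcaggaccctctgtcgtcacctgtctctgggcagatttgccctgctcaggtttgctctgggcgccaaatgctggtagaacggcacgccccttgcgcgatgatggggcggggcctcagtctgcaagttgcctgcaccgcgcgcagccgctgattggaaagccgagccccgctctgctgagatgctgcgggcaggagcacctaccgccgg
Psmb8 (chr17:34197945-34198244, plus strand): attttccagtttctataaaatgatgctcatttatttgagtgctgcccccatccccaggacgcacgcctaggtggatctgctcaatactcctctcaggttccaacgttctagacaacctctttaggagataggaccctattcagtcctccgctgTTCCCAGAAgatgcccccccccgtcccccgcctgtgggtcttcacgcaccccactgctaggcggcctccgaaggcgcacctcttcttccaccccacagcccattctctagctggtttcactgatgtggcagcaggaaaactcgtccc
Psme1 (chr14:55578244-55578543, plus strand): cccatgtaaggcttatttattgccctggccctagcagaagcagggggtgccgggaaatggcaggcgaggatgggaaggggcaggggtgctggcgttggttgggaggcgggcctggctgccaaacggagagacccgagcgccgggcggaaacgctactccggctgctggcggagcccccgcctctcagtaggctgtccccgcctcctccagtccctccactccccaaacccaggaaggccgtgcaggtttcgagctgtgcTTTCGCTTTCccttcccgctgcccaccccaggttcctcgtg
Psmb6 (chr11:70525107-70525406, plus strand): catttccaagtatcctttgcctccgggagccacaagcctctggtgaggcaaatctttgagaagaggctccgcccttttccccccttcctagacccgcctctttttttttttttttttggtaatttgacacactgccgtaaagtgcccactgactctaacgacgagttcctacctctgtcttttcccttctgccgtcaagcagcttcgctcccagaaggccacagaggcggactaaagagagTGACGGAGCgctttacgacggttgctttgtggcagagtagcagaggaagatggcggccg
Psmb5 (chr14:54617946-54618245, minus strand): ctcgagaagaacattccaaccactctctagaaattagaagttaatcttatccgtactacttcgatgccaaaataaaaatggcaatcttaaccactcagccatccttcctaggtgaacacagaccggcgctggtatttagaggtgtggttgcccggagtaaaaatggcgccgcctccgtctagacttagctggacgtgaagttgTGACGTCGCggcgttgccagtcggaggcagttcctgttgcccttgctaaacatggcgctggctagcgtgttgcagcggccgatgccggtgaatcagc

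The interferon-stimulated response element was found at positions 260 to 269 of the Psme1 window, just after the start, on the minus strand, and in 1 of the 5 inducible genes. It was also in the windows of Psmb3, Psmd4 and Psmd9, constitutive genes, and in 3.44% of all 32851 windows of this length. The gamma-activated site of Psmb8, at positions 154 to 162, matches the pattern on both strands, as any match of it does. This site was in 1 of the 5 inducible genes, and a match was also in the window of Psmd2 and in 8.30% of all windows. The antioxidant response element was in 6 of 33 windows of the other members (18.2%), those of Psmb5, Psmb6, Psmc6, Psmd12, Psmd9 and Psme4, in 0 of the 6 inducible windows and in 12.4% of all windows. The windows of Psmb10 and Psme2, not shown, held none of these motifs. No match overlapped a match of another motif. These matches describe the letters in these windows only.

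Each inducible beta subunit was then set against the constitutive subunit whose place it takes. Psmb5 gave 65.1 and 64.8 CPM in Mdr2+/+ livers and 52.0, 57.2 and 55.0 CPM in Mdr2+/- livers (log2 fold change -0.25, adjusted p = 0.0405 in edgeR). Psmb6 gave 115 and 112 CPM against 92.8, 93.5 and 94.7 CPM (log2 fold change -0.28, adjusted p = 0.0151), and Psmb7 119 and 119 CPM against 104, 112 and 111 CPM (log2 fold change -0.13, adjusted p = 0.200). The constitutive partners were thus lower in every Mdr2+/- library too, but by far less than the inducible ones, and Psmb7 was not called.

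The Psmb8 to Psmb5 ratio (log2 of the CPM ratio) was 0.83 and 0.29 in Mdr2+/+ livers and -0.17, -0.37 and -0.29 in Mdr2+/- livers, a difference of -0.84 (SE 0.21). The Psmb9 to Psmb6 ratio was -0.56 and -1.02 against -1.88, -1.97 and -1.84, a difference of -1.11 (SE 0.18). The Psmb10 to Psmb7 ratio was -0.47 and -0.70 against -1.42, -1.64 and -1.50, a difference of -0.94 (SE 0.12). In none of the 3 pairs did the groups overlap. The exact permutation test over libraries (two-sided, n = 2 and 3) gave p = 0.2 for each pair, which is the smallest value this design allows, and p = 0.2 after adjustment over the 3 pairs.

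Scaled to transcript length (CPM per kb), Psmb8 made up 49.6 and 40.3% of the Psmb8 and Psmb5 message in Mdr2+/+ livers and 32.9, 29.98 and 31.1% in Mdr2+/- livers. Psmb9 made up 28.7 and 22.6% of its pair against 13.8, 13.1 and 14.2%. Psmb10 made up 39.1 and 35.3% of its pair against 24.8, 22.2 and 23.8%. On this scale the constitutive message was the larger part of each pair in all 5 libraries, and more so in the Mdr2+/- livers. For the first pair this rests on annotated lengths of 1628 (Psmb8) and 899 bases (Psmb5). In unscaled CPM Psmb8 was above Psmb5 in both Mdr2+/+ libraries and below it in the Mdr2+/- libraries.

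**Figure D2:**
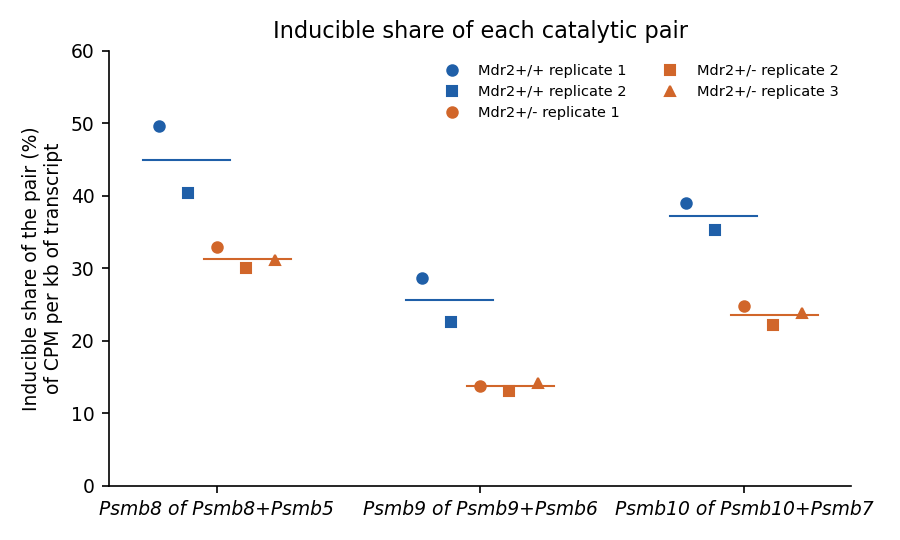
Share of the inducible subunit in the length-scaled message (CPM per kb of transcript, in %) of each catalytic pair, a point per library and a line at each group mean. The Mdr2+/- libraries lie below both Mdr2+/+ libraries in each pair, for Psmb9 at 13.7 ± 0.554% against 25.6 ± 4.30%.

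**Figure D3:**
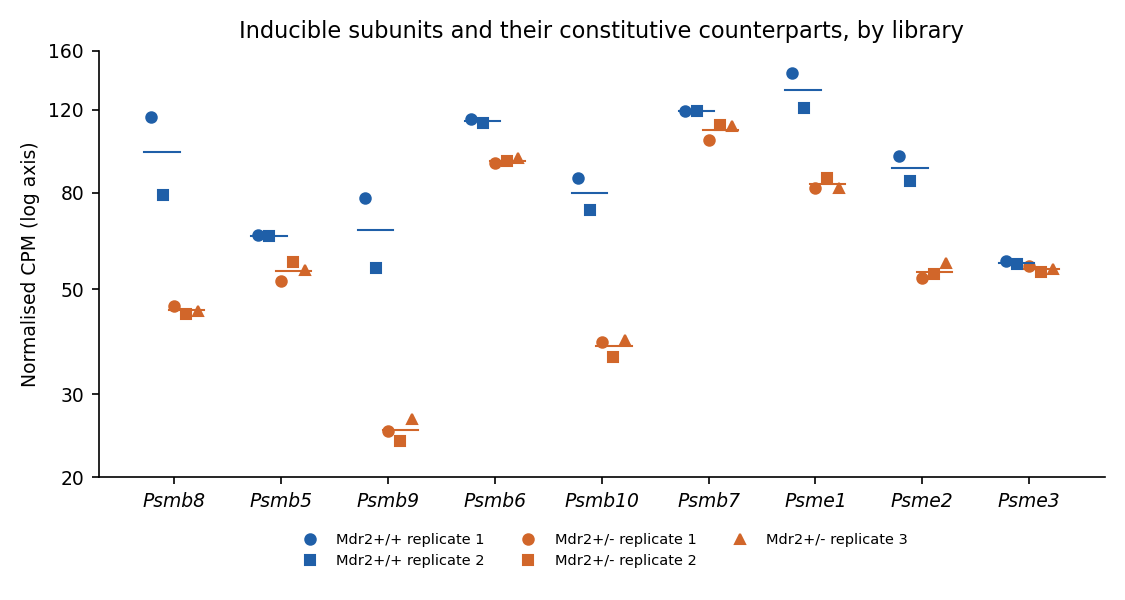
Normalised CPM on a log axis for the inducible genes, their constitutive counterparts and Psme3, a point per library and a line at each group mean. The inducible genes show a wide gap between the genotypes and a spread between the Mdr2+/+ libraries. In Psmb5, Psmb6, Psmb7 and Psme3 the Mdr2+/- libraries also lie below both Mdr2+/+ libraries, but by less. The Mdr2+/+ libraries lie close together in these genes.

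The Mdr2+/+ libraries differed more from each other in the inducible genes than in their constitutive partners. Mdr2+/+ replicate 1 exceeded replicate 2 by 0.55 on the log2 scale for Psmb8, 0.49 for Psmb9, 0.25 for Psme1, 0.23 for Psmb10 and 0.17 for Psme2, against 0.01 for Psmb5 and 0.03 for Psmb6. The 5 inducible genes summed to 520 and 414 CPM in Mdr2+/+ livers and to 245, 244 and 249 CPM in Mdr2+/- livers. The other 39 rows summed to 2850 and 2876 CPM against 2505, 2604 and 2565 CPM, so that their sum in Mdr2+/- livers was 89.3% of the Mdr2+/+ level, where that of the inducible genes was 52.7%.

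The alpha ring of the core particle, which gates the barrel, held the deepest falls outside the inducible genes, in Psma7 and Psma5. Of its 7 genes 5 were called lower (Psma7, Psma5, Psma2, Psma3 and Psma4) and 0 higher, with a median log2 fold change of -0.31. Psma7 gave 92.0 and 89.5 CPM in Mdr2+/+ livers and 65.4, 68.2 and 69.6 CPM in Mdr2+/- livers (log2 fold change -0.42, SE 0.06, adjusted p = 0.00334). Psma5 gave 75.4 and 79.5 CPM against 59.97, 59.1 and 60.7 CPM (log2 fold change -0.37, SE 0.06, adjusted p = 0.00551). In all 7 genes the Mdr2+/- libraries lay below both Mdr2+/+ libraries, including Psma1 (log2 fold change -0.23, adjusted p = 0.0566) and Psma6 (-0.18, adjusted p = 0.121), which were not called. Among all tested genes 22.7% were separated in this direction, and 45.5% in either.

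Psma2 (log2 fold change -0.35), Psma3 (-0.31) and Psma4 (-0.27) completed the called alpha genes. Of the 7 constitutive beta genes 6 were called lower and 0 higher, with a median of -0.24. Psmb6 (-0.28), Psmb2 (-0.27), Psmb5 (-0.25) and Psmb1 (-0.24) were followed by Psmb4 (-0.22) and Psmb3 (-0.22). The catalytic Psmb7 (-0.13) had the smallest value of the 7 and was not called. Psmb4 gave 145 and 143 CPM in Mdr2+/+ livers and 124, 124 and 123 CPM in Mdr2+/- livers. Per length, Psmb6 (142 ± 2.24 CPM per kb in Mdr2+/+ livers) and Psmb4 (122 ± 1.57) were the highest of all members, ahead of Psme1 (119 ± 14.7).

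In the regulatory particle fewer genes were called. Among all tested genes 5.41% were called lower and 6.63% higher. Of the 6 ATPases 3 were called lower, Psmc5 (82.3 and 82.1 CPM against 59.97, 64.9 and 68.3 CPM, log2 fold change -0.35), Psmc4 (-0.28) and Psmc3 (-0.28). Psmc2 (-0.18), Psmc6 (-0.16) and Psmc1 (-0.04, adjusted p = 0.787) were not called, although they form the same ring. Of the 12 non-ATPase rows only Psmd12, a lid subunit, was called lower (66.2 and 68.5 CPM against 56.1, 57.9 and 56.7 CPM, log2 fold change -0.24). That was 8.33% of these rows, near the share of all tested genes. Psmd14, the lid deubiquitinase, had a log2 fold change of -0.24 (adjusted p = 0.0601) and the ubiquitin receptor Psmd4 one of -0.21 (adjusted p = 0.0646).

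Psmd1 and Psmd2 are the large scaffold subunits of the base, and neither was called. Psmd1 gave 121 and 115 CPM against 126, 114 and 114 CPM (log2 fold change 0.01, SE 0.07), and Psmd2 139 and 136 CPM against 143, 146 and 143 CPM (0.06, SE 0.06). Psmd3, a lid subunit, had the highest value of the particle's annotated subunits (82.8 and 82.4 CPM against 88.8, 90.6 and 88.3 CPM, 0.11, SE 0.06, adjusted p = 0.247). The minor Psmd14 row had a log2 fold change of 0.47 from 1.40 ± 0.0757 CPM (SE 0.31, adjusted p = 0.356). Summed over rows, the alpha ring in Mdr2+/- livers stood at 80.9% of the Mdr2+/+ level, the constitutive beta ring at 85.6%, the ATPases at 86.4% and the non-ATPase subunits at 97.0%. Differences between these sums were not tested, and the sums carry no offset for transcript length. Without that offset, described below, the median log2 fold change was -0.26 in the constitutive 20S genes and -0.14 in the 19S ATPase and non-ATPase rows. With it the medians were -0.14 and -0.10, the latter over the 17 rows with a length.

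The base chaperones, which help to assemble the ATPase ring, held 0 called genes of 3, from Psmd10 (log2 fold change -0.22, adjusted p = 0.237) to Psmd5 (0.00, SE 0.10). Psme4, the nuclear activator PA200, was the only member called higher: it gave 55.5 and 62.1 CPM in Mdr2+/+ livers and 78.9, 80.3 and 70.0 CPM in Mdr2+/- livers (log2 fold change 0.38, SE 0.08, adjusted p = 0.0183). All 3 Mdr2+/- libraries were above both Mdr2+/+ libraries. The call ended without Mdr2+/+ replicate 1 (adjusted p = 0.125), without Mdr2+/- replicate 2 (0.0621) and with the length offset described next (0.0749). Psme3, the nuclear relative of PA28 that interferon does not induce, gave 57.3 and 56.6 CPM against 56.0, 54.3 and 55.3 CPM (log2 fold change -0.05, SE 0.06, adjusted p = 0.668). The testis subunit Psma8 (0.982 ± 0.199 and 1.07 ± 0.674 CPM) and the thymus subunit Psmb11 (0.751 ± 0.128 and 0.679 ± 0.121 CPM) were near the detection limit in both groups.

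Transcript length moved with the fold changes of the members outside the inducible genes. Across all tested genes with a length, the log2 fold change rose with length (Spearman rho 0.297, across genes, which are not independent replicates). Among the 36 other members with a length, without Psma8 and Psmb11, rho was 0.504. Those of up to 1561 bases had a median of -0.24, with 10 of 18 called lower, against a median of -0.14 and 12.4% called lower among all 2655 tested genes of such lengths. Those above had a median of -0.11, with 5 of 18 called lower and 1 higher, against a median of 0.03 and 3.76% called lower among all 11123 longer tested genes. With an offset for transcript length, 10 members were called lower (3.89% of all tested genes were) and 0 higher (4.99% of all tested genes).

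The 5 inducible genes kept their calls with that offset, with a median log2 fold change of -0.98 (Psmb9 -1.32, Psmb8 -1.05, Psmb10 -0.98, Psme2 -0.61, Psme1 -0.56). Of the other members Psma7 (-0.30), Psma5 (-0.27), Psma2 (-0.34), Psma3 (-0.30) and Psmc5 (-0.26) remained called, and all 6 constitutive beta genes lost their calls (adjusted p = 0.0950 to 0.488). Psma2 and Psma3 have annotated principal transcripts of 2911 and 2846 bases, far longer than those of the other alpha genes, and the offset for them rests on those lengths. Of the 21 called members 9 were called in each of 13 alternative fits: the 5 inducible genes and Psma7, Psma5, Psma2 and Psma3. The other called members lost the call in at least 1, and the number of other members called lower was 4 to 7 with a library left out.

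**Figure D4:**
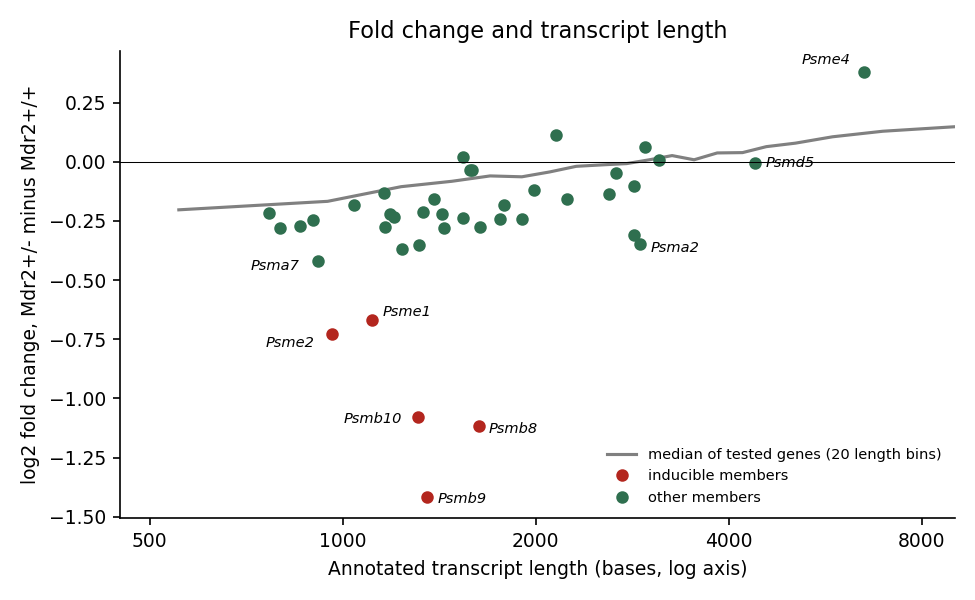
Log2 fold change (Mdr2+/- minus Mdr2+/+) of proteasome genes against annotated transcript length in bases (log axis), with the median of tested genes in 20 length bins as a grey line. Most of the other members lie below the line, and the inducible genes, of 962 to 1628 bases, lie far below it.

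Genes that control or partner the immunoproteasome were listed apart from the members. Of 13 genes of interferon control 3 were called lower and 0 higher, where 5.41% of all tested genes were called lower and 6.63% higher. Nlrc5, the class I transactivator, which also acts on Psmb9, gave 14.99 and 11.2 CPM in Mdr2+/+ livers and 5.81, 4.98 and 6.75 CPM in Mdr2+/- livers (log2 fold change -1.17). Irf9, a factor of the type I interferon response, went from 27.6 ± 6.504 to 18.4 ± 0.693 CPM (log2 fold change -0.59); its call ended without Mdr2+/+ replicate 1 (log2 fold change -0.32, adjusted p = 0.127) and without Mdr2+/- replicate 2 (adjusted p = 0.0641).

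Irf1, the factor that binds the shared Psmb9 and Tap1 promoter, gave 50.4 and 28.3 CPM against 30.1, 21.2 and 22.9 CPM; the groups overlapped and it was not called (log2 fold change -0.69, SE 0.21, adjusted p = 0.0660). The receptor and kinase genes Ifngr1, Ifngr2, Ifnar1, Ifnar2, Jak1 and Jak2 had log2 fold changes of -0.15 to 0.15 and none was called.

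Of 8 peptide loading genes 5 were called lower and 0 higher, where 5.41% of all tested genes were called lower and 6.63% higher. Tap1, which shares a promoter with Psmb9, gave 61.2 and 39.3 CPM in Mdr2+/+ livers and 26.5, 23.98 and 24.2 CPM in Mdr2+/- livers (log2 fold change -1.02, SE 0.15, adjusted p = 0.00389), and -0.66 without Mdr2+/+ replicate 1. Tap2 (-0.60), the loading factors Tapbp (-0.39) and Tapbpl (-0.57) and the class I light chain B2m (-0.49) fell too. Tapbp lost its call without Mdr2+/+ replicate 1 (adjusted p = 0.0670). Erap1, Calr and Pdia3 (-0.18 to -0.17) were not called. With the length offset 6 of the 8 were called lower, Erap1 among them (-0.26, adjusted p = 0.0366). Irf1, Irf9, Nlrc5, Tap1, Tap2, Tapbp and B2m, like the inducible subunits, were highest in Mdr2+/+ replicate 1. Tapbpl was not, at 45.1 and 45.3 CPM in the Mdr2+/+ livers.

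**Figure D5:**
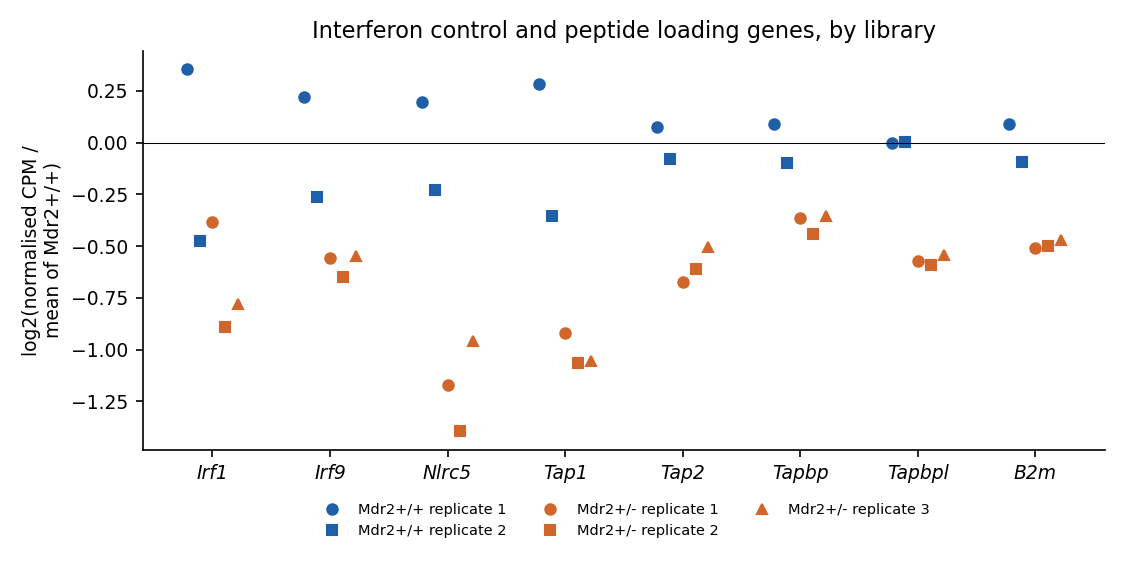
Log2 of normalised CPM relative to the Mdr2+/+ mean for genes of interferon control and peptide loading, a point per library. The Mdr2+/- libraries lie below both Mdr2+/+ libraries for every gene shown except Irf1, whose groups overlap. Among all tested genes 22.7% were separated in this direction. Apart from Irf1, only genes called lower are shown. Genes of these lists not shown include Jak1 and Jak2, whose groups overlap, Calr, separated lower, and Ifnar1, separated higher.

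Genes that assemble or regulate the proteasome were called in both directions, where 5.41% of all tested genes were called lower and 6.63% higher. Of 15 tested genes 2 were called lower, the chaperone Psmg4 (13.5 ± 1.47 to 9.25 ± 1.48 CPM, log2 fold change -0.54) and the proteasome-bound deubiquitinase Usp14 (-0.27), and 2 higher. Those were Nfe2l1, the factor that raises proteasome gene transcription (76.5 and 80.6 CPM against 89.7, 101 and 99.7 CPM, log2 fold change 0.31), and Ddi2, the protease that activates it (132 and 121 CPM against 158, 160 and 153 CPM, log2 fold change 0.31). The calls of Nfe2l1, Ddi2 and Psmg4 ended with the length offset (adjusted p = 0.0774, 0.168 and 0.0923). All 4 calls ended in at least 1 fit with a library left out, that of Usp14 in all 5 such fits, with the replicate block and in DESeq2. Pomp, the chaperone of core particle assembly, was not called (log2 fold change -0.25, adjusted p = 0.0666).

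Of 14 tested genes of ubiquitin supply and unfolding 1 was called lower and 3 higher, where 5.41% of all tested genes were called lower and 6.63% higher. The ubiquitin ligases Ube3c, which works at the proteasome (26.5 and 27.7 CPM against 40.8, 42.7 and 38.2 CPM, log2 fold change 0.58), and Ube3a (0.39) rose, as did the unfolding cofactor Nploc4 (0.25), and the ubiquitin fusion gene Rps27a fell (-0.26). With the length offset Ube3c alone of these 4 was called (0.51, adjusted p = 0.00405). The calls of Nploc4 and Rps27a also ended with the replicate block and with each Mdr2+/- library left out. That of Ube3a ended without Mdr2+/- replicate 2. The polyubiquitin gene Ubb (-0.18) and the unfoldase Vcp (0.03) were not called.

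Leukocytes carry immunoproteasomes without interferon, so marker genes of the other cells in a liver were summed in each library. Among all tested genes, as above, 5.41% were called lower and 6.63% higher. The sum over 7 Kupffer cell and macrophage genes was 288 to 442 CPM in Mdr2+/+ livers and 319 to 376 CPM in Mdr2+/- livers, with 1 of 7 called lower (Marco) and a median log2 fold change of -0.13. Clec4f, the defining Kupffer cell gene, gave 149 and 107 CPM against 125, 134 and 111 CPM. The groups overlapped in both measures, and Mdr2+/+ replicate 1, the library with the highest inducible subunits, had the highest macrophage sum. Mdr2+/+ replicate 2 had the lowest macrophage sum (288 CPM). Its inducible genes summed to 414 CPM, against 244 to 249 CPM in Mdr2+/- livers. A relation between the macrophage and inducible sums was not tested.

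T and NK cell genes were scarce, at 9.17 to 12.6 CPM over 8 genes in Mdr2+/+ livers and 7.93 to 8.32 CPM in Mdr2+/- livers, with 1 of 6 tested genes called lower (Cd3e) and 0 higher. The Cd3e call ended with the length offset (adjusted p = 0.0643). Cd3d alone of the tested genes had a positive log2 fold change (1.11, adjusted p = 0.135, not called). The 6 dendritic cell genes summed to 9.25 to 9.67 CPM against 8.61 to 9.18 CPM, with 0 of 4 called. B cell genes were higher in Mdr2+/- livers (13.0 to 18.3 CPM against 32.2 to 38.5 CPM, 5 of 6 called higher), as were neutrophil genes (108 to 156 CPM against 348 to 447 CPM, 7 of 8 called higher). Erythroid genes were lower (1561 to 1941 CPM against 949 to 1049 CPM, 4 of 5 called lower). No marker in the lists was at 0 in any library. The hepatocyte genes Alb, Ttr, Apoa1, Apob and Cps1 summed to 154897 to 167928 CPM against 166383 to 181571 CPM and were the most abundant list, with Cps1 called higher (log2 fold change 0.87) and Apoa1 called lower (-0.21). The part of any of these cells in the proteasome results was not tested.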

How the data were processed

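Liver RNA from snap-frozen tissue was made into TruSeq libraries and run on a HiSeq machine, per the labels' protocols. Alignment used TopHat on mm10, per the submitters' processing notes. Not given in the sources used here are its version, the counter, the annotation and any use of strand. The deposited values are estimated counts for each gene, not scaled for depth (11944157 to 17312851 per library; 3 counts equal 0.173 to 0.251 CPM, counting error only). Replicates differed beyond sampling noise (chi-square per degree of freedom 5.30 to 8.86 within a genotype).

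Counts were rounded, filtered with filterByExpr (minimum count 10), scaled by TMM and tested in edgeR 4.0.16 (quasi-likelihood, no covariate, Benjamini-Hochberg over 13959 genes, threshold 0.05) under R 4.3.3. The procedure was tested on simulated data. The SE is the fold change over the square root of F. Positions and principal transcript lengths came from GENCODE M21 (42 rows matched by identifier, 1 by symbol). The rule named the inducible genes and their partners, called members, the extremes of each role and called pathway genes; other genes were named after their values were seen. Members and lists were chosen with earlier results of these data known. Alternatives were other scalings and filters, DESeq2 1.42.0, robust limma 3.58.1, a length offset (loess of each library's log CPM deviations on log length), a replicate block and each library left out. Some genes of the lists are counted but not reported here by name.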

Additional observations from a re-analysis of the deposited data

How the results depend on the processing

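The 5 inducible genes and Abcb4 were called lower in all 13 alternatives. The 20 members called lower became 10 with the length offset, 13 with the replicate block and 9 to 12 with a library left out. The 15 other members among them became 5, 8 and 4 to 7. The count called higher went from 1 to 0 with the length offset and was 0 to 1 with a library left out. The inducible median minus that of the other members (-0.90) ran from -0.996 to -0.60 with a library left out. Pathway genes called lower went from 11 to 7 to 9 with a library left out, and those called higher from 5 to 1 with the length offset, 3 with the block and 1 to 4 with a library left out. The causes were not tested. Replicate numbers are not stated to pair the libraries. Deviations of same-numbered libraries correlated at 0.030 for number 1 and 0.029 for number 2. With 2 Mdr2+/+ libraries the deviations mirror each other, so differently numbered libraries give the same values with the sign reversed. Pairing was thus neither shown nor excluded. Uncalled genes near 0 changed sign. Psmc1 gave 0.038 with the length offset and -0.085 to 0.013 with a library left out. Psmd5 gave 0.0042 without a filter, 0.031 with the block and -0.17 to 0.17 with a library left out. Psma8 gave -0.10 in robust limma, -0.31 with the block and -0.38 to 0.55 with a library left out. Psmb11 ran from -0.29 to 0.060 with a library left out. Scaling by library size alone moved the median of all genes by -0.04.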
